A study of Mus musculus with 4 samples.

Results

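The MHC class II genes of the mouse were followed as 9 members, chosen by symbol in the gene list that all 4 count matrices share: H2-Aa, H2-Ab1, H2-Eb1, H2-DMa, H2-DMb1, H2-DMb2, H2-Oa, H2-Ob and Ciita. All 9 were found among 32285 genes. The libraries were scRNA-Seq of callus and of trabecular bone at week 2, 1 library per tissue from placebo-treated mice (control) and 1 from mice given prednisolone, a glucocorticoid (GC), at 6.25 mg/kg/d. All were 20-week-old male C57BL/6J mice without a transgene. The labels describe a slow-release pellet, whereas the study's text gives prednisolone by daily injection after fracture and by pellet otherwise. With 1 library per condition there was no replicate error and no test between conditions, and every interval here is a 95% interval for counting error only.

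MHC class II molecules present peptides from the endocytic route to CD4+ T cells. H2-Aa and H2-Ab1 encode the alpha and beta chains of I-A, and H2-Eb1 encodes the beta chain of I-E, which mice of the b haplotype do not display because the partner alpha chain is not made. These 3 classical genes are most active in dendritic cells, B cells and activated macrophages. H2-DM, the product of H2-DMa with H2-DMb1 or H2-DMb2, exchanges the invariant chain fragment for antigenic peptide, and H2-DO, from H2-Oa and H2-Ob, restrains H2-DM. CIITA, the product of Ciita, is the coactivator that switches the whole set on without binding DNA itself. It docks on proteins that sit on a conserved run of elements upstream of the class II genes, ending in a Y box bound by NF-Y.

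On mm10, GENCODE M21 placed 8 members within 1 stretch of chromosome 17, from H2-Oa (34092340 to 34095234) through H2-DMa (34119541 to 34139101), H2-DMb2 (34143307 to 34151555), H2-DMb1 (34153072 to 34160230), H2-Ob (34238903 to 34254414), H2-Ab1 (34257689 to 34269419) and H2-Aa (34282744 to 34287823) to H2-Eb1 (34305867 to 34316674). Ciita lies apart, on chromosome 16 (10480059 to 10528418). H2-Aa is on the minus strand and the others are on the plus strand. H2-DMa overlaps Brd2 on the opposite strand by 3094 bases, Ciita overlaps Dexi, and H2-Oa and H2-Eb1 each overlap an antisense gene. Of the genes annotated as antisense over H2-DMa, CR974462.4 lies on the opposite strand and CR974462.3 on the same strand, by 591 bases. Whether the counting used strand is not given in the sources used here. H2-DMb1 and H2-DMb2 are close paralogs, with 88.7% identity over 1217 aligned bases and 22.7% of the 50-base words of H2-DMb1 also present in H2-DMb2. Reads within such words could not be assigned to 1 of them, so the pair was also summed.

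RefSeq promoter windows (GRCm38.p6) were found for 7 of the 9 members, 8 windows in all, with none for H2-Ab1 and Ciita. In 5 members, H2-Oa, H2-DMb1, H2-Ob, H2-Aa and H2-Eb1, a GCAAC or GTAAC word was followed 20 to 45 bases downstream by ATTGG in the same orientation. Among 32851 promoters, 1.49% held that pair of words on either strand within 250 bases of the start, 43.8% held the first word and 33.8% held the second. The stretches are shown because the coactivator among the members works through such elements. Each is written from 20 bases before the first word to the end of the second, with both words in capitals and coordinates on chromosome 17.
H2-Oa, plus strand, chr17:34092283-34092340: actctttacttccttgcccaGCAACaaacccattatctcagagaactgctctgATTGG
H2-DMb1, plus strand, chr17:34153077-34153134: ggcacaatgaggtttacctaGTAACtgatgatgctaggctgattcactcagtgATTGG
H2-Ob, plus strand, chr17:34238798-34238852: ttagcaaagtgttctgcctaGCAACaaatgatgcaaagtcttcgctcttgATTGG
H2-Aa, minus strand, chr17:34287867-34287924: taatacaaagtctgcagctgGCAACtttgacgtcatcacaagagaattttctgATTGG
H2-Eb1, plus strand, chr17:34305756-34305812: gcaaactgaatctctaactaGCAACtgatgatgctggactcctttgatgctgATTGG
H2-DMb2, plus strand, chr17:34145106-34145163: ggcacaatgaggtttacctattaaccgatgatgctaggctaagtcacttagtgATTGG
The start-to-start distance of the words was 33 bases in H2-Oa, H2-DMb1 and H2-Aa, 32 in H2-Eb1 and 30 in H2-Ob. The first word began 76 to 94 bases before the RefSeq start, and the stretches of H2-DMb1 and H2-DMb2 lie inside the wider GENCODE bounds of those genes. H2-DMb2 is set beside its paralog because it held ATTGG alone in this window, and the pair was absent from both H2-DMa windows. A match is a description of letters and not of a bound site.

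The files held 41239842 to 95852254 UMIs (unique molecular identifiers, each marking 1 captured RNA molecule) per library, and 3832 to 6890 cells per library passed the filters, with a median of 3287 to 6290.5 UMIs per cell. Pairs of libraries shared 5 to 11 cell barcodes. The GC callus matrix listed called barcodes only, whereas the others listed every barcode. Clusters were built without the members and named from marker genes. The markers were present where they belong. All 15 B cell markers were higher in callus B cells than in other cells of both libraries, as were 18 (control) and 16 (GC) of 20 conventional dendritic cell (cDC) markers in cDCs, with Itgae at 0 in GC, 19 and 21 of 22 macrophage markers in macrophages, and 12 of 16 monocyte markers in monocytes of each library, with Ly6c1 at 0. The monocyte list summed to 6029.7 CPM (UMIs of the genes per 1000000 UMIs of the cells) in control monocytes and 5807 CPM in the other cells, and to 4943 and 8021 CPM in GC, and Chil3 is on the neutrophil list too. Among barcodes far below the cell range, which carry free RNA, the 3 classical genes summed to 484 CPM in control callus, 135 CPM in control trabecular bone and 98.2 CPM in GC trabecular bone.

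In callus, classical MHC class II RNA was highest in cDCs, followed by B cells, macrophages and monocytes, in both libraries. The classical genes summed to 19021 CPM in 97 control cDCs and 17365 CPM in 123 GC cDCs. B cells held 8124 CPM (622 cells) and 8093 CPM (392 cells). Macrophages held 7124 CPM (87 cells) and 5198 CPM (82 cells), and monocytes 3339 CPM (570 cells) and 2006 CPM (429 cells). Counting intervals of neighbors in this order did not overlap. Plasmacytoid dendritic cells stood below these 4 classes, at 1119 CPM in 51 control cells and 1183 CPM in 9 GC cells. T or NK cells (153 and 35.6 CPM) and neutrophils (215 and 190.2 CPM) lay below the free RNA level of control callus, which has no counterpart in the GC callus matrix, so no expression was read from them.

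**Figure D1:**
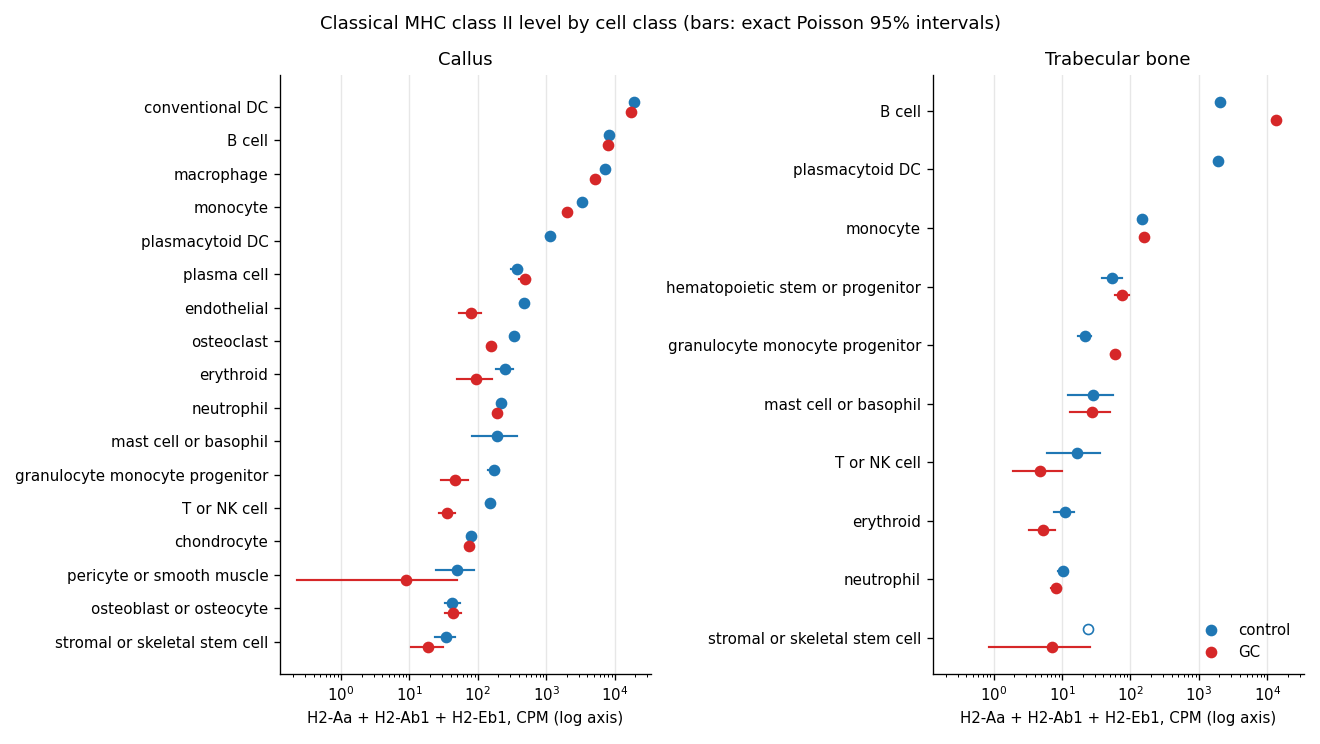
Summed CPM of H2-Aa, H2-Ab1 and H2-Eb1 (log axis) in each cell class of at least 15 cells, control in blue and GC in red, with exact Poisson 95% intervals that are often narrower than the point; the open point has no UMI and is drawn at the floor of 3 counts. In callus, cDCs lead at 19021 and 17365 CPM, and in trabecular bone the B cell points are far apart, at 2007 and 13373 CPM.

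The cDCs, few in number, carried a large share of these molecules. cDCs were 1.44% of control and 1.79% of GC callus cells and held 26.9% and 37.1% of the classical UMIs found in cells. B cells held 24.1% and 19.2%, monocytes 18.9% and 10.5%, and macrophages 10.9% and 8.53%. Over all callus cells the classical sum was 531 CPM in control and 516 CPM in GC, a log2 ratio (GC over control, 5 CPM added to each) of -0.04 (-0.06 to -0.02), and 1.46 with the UMI cutoff alone, which drops shallow cells from the control library only. Cells of unnamed clusters held 2.17% and 11.7%, of which cluster 27, whose marker count was that of monocytes, made up 1.76% and 9.87%. Counted with it, monocytes held 20.7% (20.3% to 21.1%) of control and 20.4% (19.9% to 20.8%) of GC, so the lower monocyte share rests on leaving that cluster out. The cDC share was higher in GC.

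**Figure D2:**
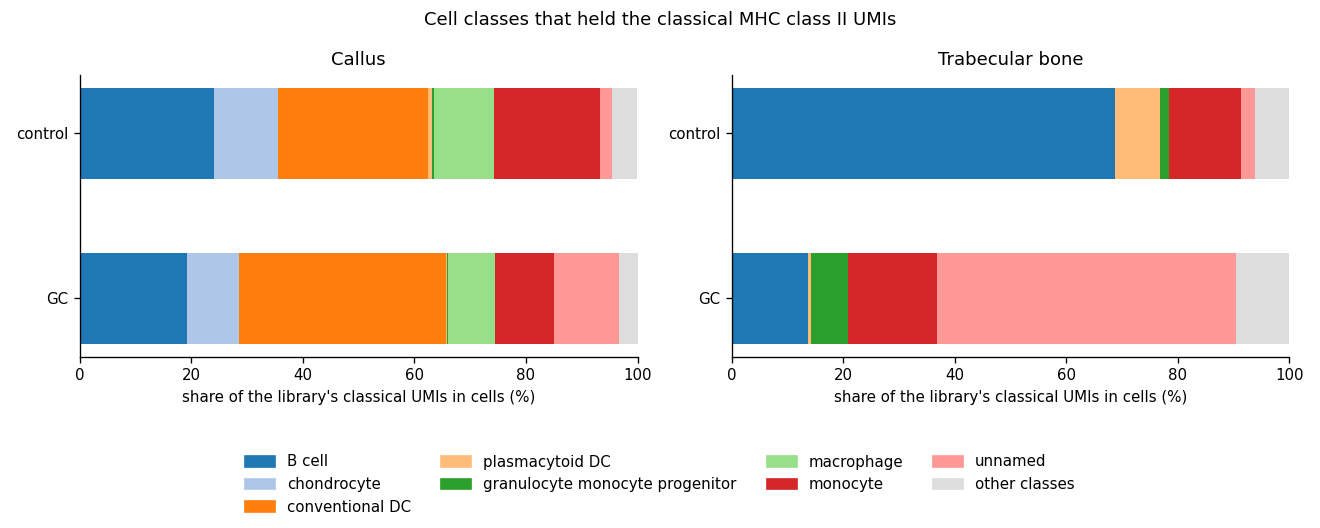
Share of each library's classical UMIs in cells (percent, horizontal axis) by cell class, one bar per library. In callus the cDC part widens from 26.9% to 37.1%, and in trabecular bone B cells go from 68.8% of control to 13.6% of GC while cells of unnamed clusters make up 53.7% of GC.

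In callus cDCs, the classical genes were close between libraries while the peptide-editing genes were lower in GC. The classical sum differed by a log2 ratio of -0.13 (-0.17 to -0.09). H2-Aa, the I-A alpha chain, was 6944 CPM in control and 6985 CPM in GC, and H2-Ab1, its beta chain, was 5674 and 4612 CPM. H2-DMa was 415 and 234 CPM (log2 ratio -0.82), and H2-DMb1 was 216 and 101 CPM (-1.06, -1.50 to -0.62). Summed with H2-DMb2 they gave 649 and 349.6 CPM, -0.88 (-1.13 to -0.64). H2-Oa, a chain of the H2-DM inhibitor H2-DO, was 73.6 and 37.6 CPM, and H2-Ob, the other chain, 73.6 and 52.3 CPM (-0.46, with an interval that spans 0).

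Of the 9 members, 8 reached 50 UMIs over both libraries in cDCs. A log2 ratio of at least 1 was passed by 1 member lower in GC, H2-DMb1, against 2.37% of 3117 genes in that direction, and by 1 member higher in GC, Ciita, against 2.95%. Ciita was 23.4 CPM in control and 58.8 CPM in GC, on 14 and 36 UMIs, a log2 ratio of 1.17 (0.36 to 1.98). After thinning to 1000 UMIs a cell, 2.06% (0.251% to 7.25%) of control and 3.28% (0.900% to 8.18%) of GC cDCs held a Ciita UMI (11.3% and 19.5% unthinned), so the share of cells did not separate the libraries at this depth. The median log2 ratio of the 8 members was -0.38, beside 0.04 for all genes tested. The cDCs came from a pair of clusters that both libraries filled, clusters 14 and 37. H2-DM was lower in GC in each, at -0.90 (-1.20 to -0.60) in cluster 14 and -0.85 (-1.28 to -0.43) in cluster 37.

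In callus B cells, the classical sum was nearly the same in both libraries, and Ciita and H2-DM were lower in GC. The classical log2 ratio was -0.01 (-0.05 to 0.04), with H2-Aa at 3376 and 3484 CPM and H2-Ab1 at 2119 and 1861 CPM. Per cell, the median was 8075 CPM in control and 7814 CPM in GC, and the quartiles (5582 to 10798, 5407 to 10749.5) nearly coincided. Ciita was 152 CPM (191 UMIs) in control and 64.6 CPM (44 UMIs) in GC, a log2 ratio of -1.17 (-1.64 to -0.72). Thinned to 1000 UMIs, 12.2% (9.69% to 15.1%) of 589 control and 7.45% (4.92% to 10.7%) of 349 GC B cells held a Ciita UMI, with 33 and 43 shallower cells left out, against 0% of thinned neutrophils in either library. Unthinned the shares were 20.6% and 8.93%, at median depths of 1918 and 1681 UMIs for B cells and 1302 and 1175 UMIs for neutrophils.

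H2-DMb2, the H2-DM beta gene that dominated in B cells, was 120.3 and 55.8 CPM (-1.04, -1.55 to -0.56), and H2-DMb1 was 67.7 and 30.8 CPM (-1.02). H2-DMa was 179 and 115 CPM (-0.62). H2-Oa was 87.7 and 52.9 CPM (-0.68), while H2-Ob, at 318 and 282 CPM, had an interval that spans 0. All 9 members reached 50 UMIs, and 3 (H2-DMb1, H2-DMb2 and Ciita) were lower by a log2 ratio of at least 1, against 4.32% of 4866 genes. The median of the members was -0.62, and that of all genes was -0.16. Other B cell values moved in the same library. The 15 B cell markers summed to 8423 CPM in control and 5919 CPM in GC, the 10 precursor genes (Vpreb1, Igll1, Dntt and others) to 319.6 and 94.0 CPM, and the 10 mature B cell genes to 1928 and 1315 CPM. Their part in the values of the members was not tested.

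**Figure D3:**
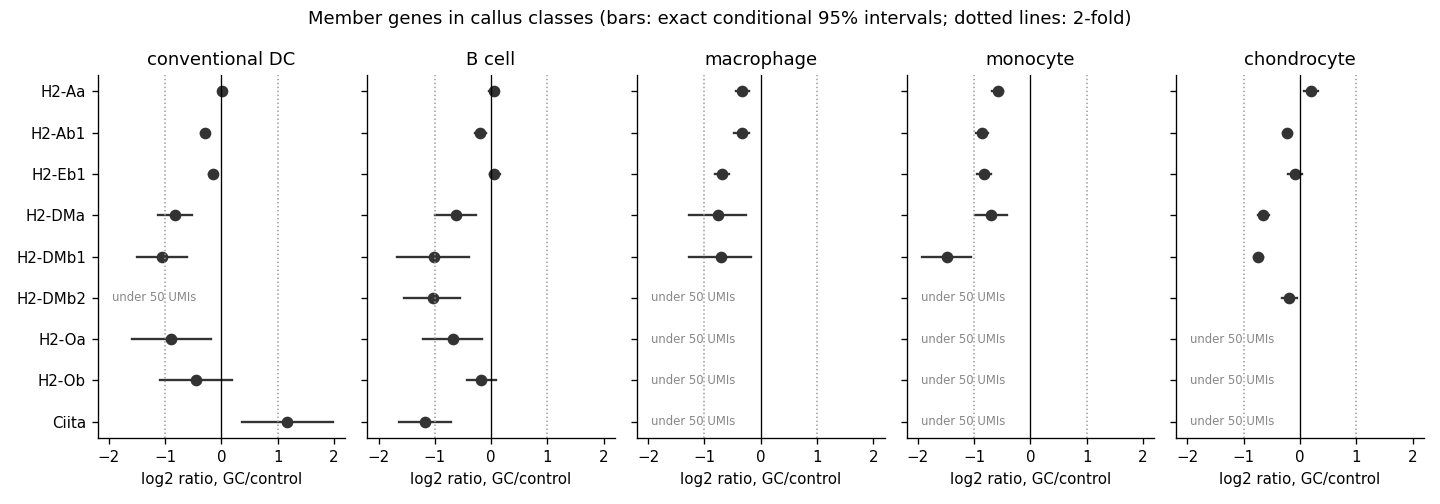
Log2 ratio of GC over control (5 CPM added) for each member in 5 callus classes, with exact conditional 95% intervals for counting error, dotted lines at a 2-fold change, and members under 50 UMIs left blank. H2-DMa and H2-DMb1 lie left of 0 in every class shown, whereas H2-Aa lies at or right of 0 in cDCs, B cells and chondrocytes, and Ciita lies on opposite sides of 0 in cDCs (1.17) and B cells (-1.17). Within chondrocyte clusters 1, 6, 9 and 10, H2-Aa was lower in GC.

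Callus macrophages carried less class II RNA in GC. The classical log2 ratio was -0.45 (-0.53 to -0.38), and 0.09 with the UMI cutoff alone. H2-Eb1 was 2639 and 1636 CPM (-0.69), H2-Aa 2625 and 2093 CPM, H2-DMa 162 and 93.5 CPM (-0.76), and H2-DMb1 136 and 80.7 CPM (-0.71). The cells were not uniform. In control, 20.7% of macrophages had no classical UMI and the upper quartile reached 14912 CPM, and in GC 51.2% had none and the upper quartile was 8065 CPM, at median depths of 6092 and 5132 UMIs. At a common 1000 UMIs, 64.3% (53.1% to 74.4%) of control and 45.7% (34.6% to 57.1%) of GC macrophages held a classical UMI, with 3 and 1 cells left out. In neutrophils the thinned share was 15.3% and 15.6%. No member of the 5 that reached 50 UMIs was lower by a log2 ratio of 1 or more, where 1.97% of 3354 genes were. H2-Oa had no UMI in either library, which allows up to 4.62 CPM in control and 6.37 CPM in GC.

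In callus monocytes the classical sum was 3339 CPM in control and 2006 CPM in GC, -0.73 (-0.79 to -0.67). H2-Ab1 was 1062 and 582 CPM, H2-Aa 1373 and 914 CPM, and H2-DMb1 81.8 and 26 CPM (-1.49, -1.93 to -1.05). H2-DMb1 was the single member, of 5 that reached 50 UMIs, lower by a log2 ratio of at least 1, against 2.36% of 5967 genes. Cells without a classical UMI were 48.1% of control and 64.6% of GC. At 1000 UMIs, 40.4% (36.3% to 44.6%) of control and 28.4% (24.1% to 33.0%) of GC monocytes held one, with 11 and 17 cells left out.

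The clusters behind the monocyte class differed between the libraries. Cluster 26 held 222 control and 4 GC cells, and cluster 28 held 22 and 162. In cluster 5, filled by both (229 and 157 cells), the classical sum was 3775 and 2901 CPM, -0.38 (-0.46 to -0.30), and H2-DMb1 was 76 and 28 CPM. Cluster 27, left unnamed because its leading genes went against its markers (34 and 156 cells), carried 4594 and 4303 CPM. When it was counted as monocytes, the class ratio was -0.34, which, like that of cluster 5, lies above the -0.45 of macrophages, so the order of these classes by ratio depends on the clusters taken in.

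**Figure D4:**
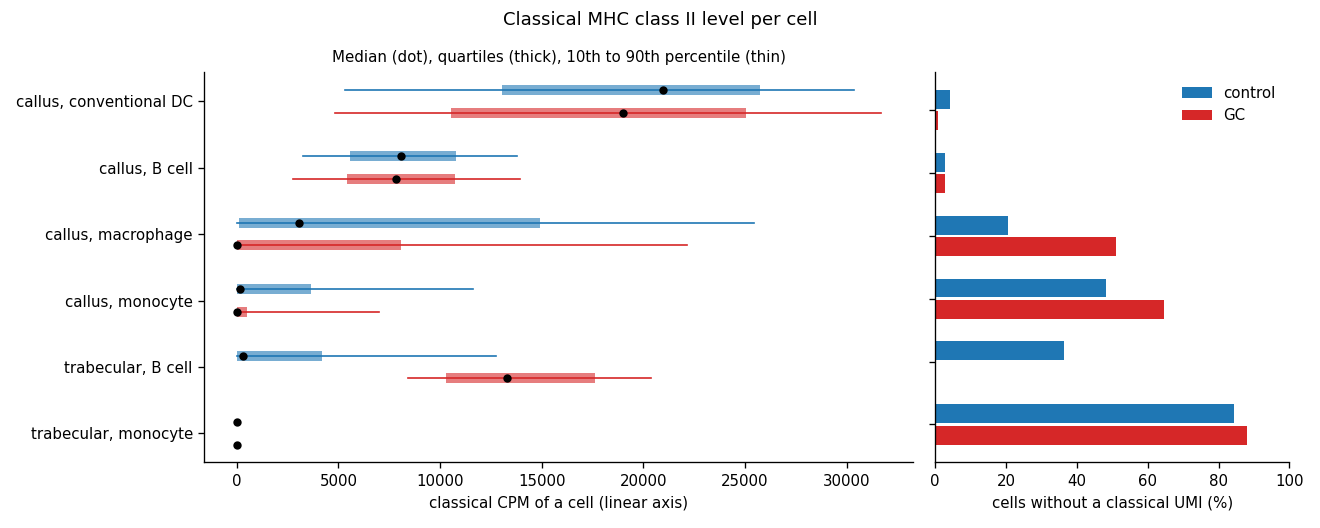
Classical CPM of single cells on a linear axis (left; dot, median; thick bar, quartiles; thin line, 10th to 90th percentile) and percent of cells without a classical UMI (right), control in blue and GC in red. Callus cDCs and B cells overlap almost fully between libraries, whereas cells without a UMI make up 20.7% and 51.2% of callus macrophages and 84.3% and 87.9% of trabecular monocytes.

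Osteoclasts, which arise from the monocyte lineage, held 334 CPM in control and 155 CPM in GC, below the free RNA level of control callus. Their cells were strongly uneven, with 4 of 112 control and 6 of 121 GC cells carrying 50% of the class's classical UMIs. Of 5 members that reached 50 UMIs, H2-Ab1 alone was lower by a log2 ratio of at least 1 (-1.22), against 1.04% of 7021 genes. In endothelial cells the sum was 475 and 78.7 CPM, but a single cell carried 64.3% and 50% of it. Plasma cells held 372 CPM in 30 control cells, also below the free RNA level of control callus, and 486 CPM in 21 GC cells. Cd74, the invariant chain that accompanies class II molecules, stood at 3.51 and 3.82 UMIs per classical UMI in plasma cells, against 1.10 and 1.03 in B cells and 0.740 and 0.643 in cDCs, and the part of free RNA in the plasma cell values was not tested.

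The H2-DM beta genes, H2-DO and Ciita differed in proportion between B cells, cDCs, macrophages and monocytes. H2-DMb2 per H2-DMb1 was 1.78 in control and 1.81 in GC callus B cells and 2.18 in control trabecular B cells, whereas it was 0.0853 and 0.145 in cDCs, 0.0341 and 0.0263 in macrophages, and 0.0204 and 0.0513 in monocytes. Summed H2-Oa and H2-Ob per UMI of H2-DM was 1.10 and 1.66 in callus B cells, 0.227 and 0.257 in cDCs, and at most 0.0301 in callus macrophages and monocytes. H2-Ob was the larger H2-DO count in B cells, with 399 UMIs against 110 of H2-Oa in control callus. In control callus Ciita also concentrated in B cells, which held 72.9% of its UMIs in cells. The cDCs held 5.34%, less than the share of chondrocytes, whose Ciita level was near 0. In GC callus the shares were closer, at 45.4% in B cells and 37.1% in cDCs. Macrophages, at 7124 and 5198 classical CPM, gave 4 and 3 Ciita UMIs.

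Chondrocytes of control callus held H2-Ab1 and H2-DM in proportions unlike those of the 4 classes with most classical RNA. The class made up 36.3% and 40.1% of callus cells and 75.7% and 66.3% of their UMIs, so low levels were well counted. Its classical sum, 80.7 CPM in control and 73.1 CPM in GC, lay below the free RNA level of control callus, as in T or NK cells and neutrophils. The part of free RNA in the chondrocyte values was not tested. H2-Ab1 was 58.0 CPM (3496 UMIs) in control and 48.8 CPM (1799 UMIs) in GC, H2-Aa 12.5 and 15 CPM, and H2-Eb1 10.2 and 9.30 CPM. H2-DMb1 was 60.1 and 33.9 CPM (-0.74), and H2-DMa 35.1 and 20.6 CPM (-0.65). In control, H2-Ab1 per H2-Aa was 4.66, compared with 0.628 to 0.817 in cDCs, B cells, macrophages and monocytes and 1.03 in free RNA. H2-DM per classical UMI was 1.24, compared with 0.0341 to 0.0665 in those 4 classes and 0.181 in free RNA. Such proportions were not particular to chondrocytes, since H2-Ab1 per H2-Aa was 6.00 in control callus plasma cells and H2-DM per classical UMI was 1.3 in control trabecular monocytes. Ciita was near 0 in level, with 31 and 6 UMIs (0.514 CPM in control), and H2-Oa had 8 and 1. Chondrocytes held 74.1% and 66.4% of all H2-DM UMIs of callus cells, close to their 75.7% and 66.3% of all UMIs. They held 11.5% and 9.40% of classical UMIs.

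Within the class, H2-DM differed between clusters. Among the 4 with at least 97 cells in each library, H2-DM was highest in 9, the one with least Col10a1. In cluster 9, where the hypertrophy gene Col10a1 was 968 CPM in control and 805 CPM in GC, H2-DMa was 79.5 and 65.8 CPM and H2-DMb1 107 and 70.9 CPM. In cluster 6 (Col10a1 11008 and 7998 CPM), H2-DMa was 38.8 and 40.7 CPM and H2-DMb1 75.7 and 62.0 CPM. In cluster 1 (Col10a1 35766 and 28538 CPM), H2-DMa was 5.41 and 4.74 CPM and H2-DMb1 21.7 and 14.5 CPM. Counting intervals of H2-DMa did not overlap between these 3 clusters in either library. The order of Col10a1 was not kept throughout, since cluster 10 had more Col10a1 than cluster 1 in control (37887 CPM) and also more H2-DMa (10.6 CPM), and GC cells of cluster 2 had Col10a1 at 27941 CPM with H2-DM at 60.2 CPM, compared with 19.4 CPM in GC cells of cluster 1. The clusters were drawn from the same cells with Col10a1 among the genes, so this is a description.

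The GC difference in H2-DM was smaller within these clusters than in the class as a whole. H2-DM log2 ratios were -0.39 (-0.54 to -0.24) in cluster 9, -0.12 (-0.22 to -0.02) in cluster 6, -0.42 (-0.59 to -0.25) in cluster 1 and -0.10 (-0.37 to 0.16) in cluster 10, while the class gave -0.73 (-0.80 to -0.67). Cluster 9 held 519 control and 97 GC cells, and cluster 2, with 7 control and 1152 GC cells, was filled by the GC library. Those 1152 cells had a median of 2512 UMIs, carried H2-Aa at 109 CPM and held 453 of the 554 H2-Aa UMIs of GC chondrocytes, with 353 of H2-Ab1. No member of the 6 that reached 50 UMIs was lower by a log2 ratio of 1 or more over the class, where 0.396% of 13651 genes were. In clusters 1, 6, 9 and 10, H2-Aa was lower in GC, from 11.3 to 3.09, 11.8 to 3.41, 12.9 to 2.32 and 15.8 to 2.13 CPM, and the level of H2-Aa in control free RNA was 160.2 CPM. Free RNA could not be measured in the GC callus matrix.

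**Figure D5:**
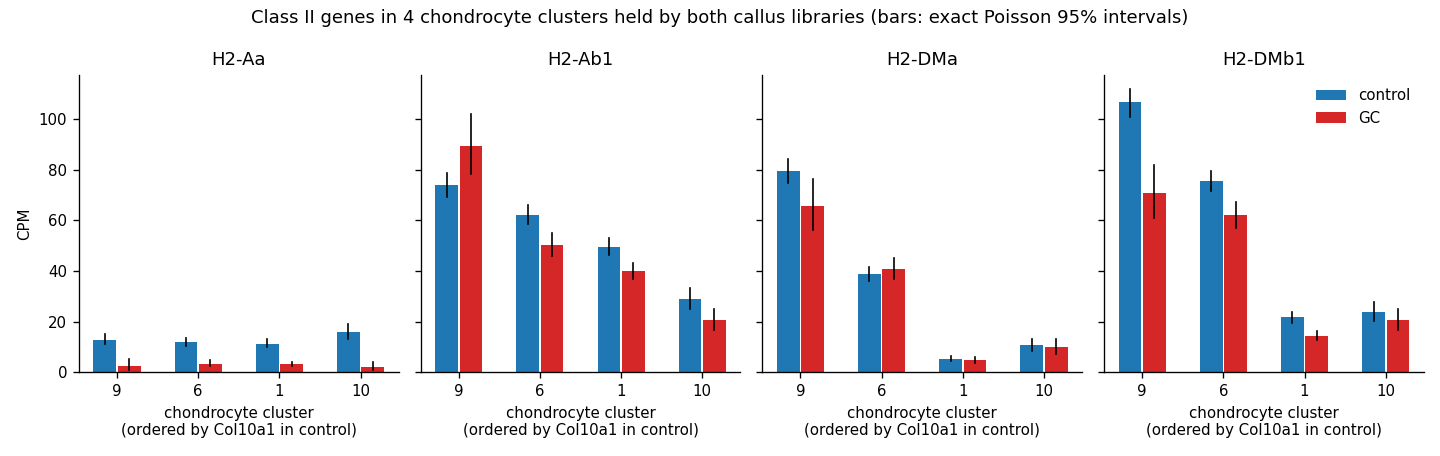
CPM of H2-Aa, H2-Ab1, H2-DMa and H2-DMb1 in the 4 chondrocyte clusters with at least 97 cells in each callus library, ordered by Col10a1 in control, with exact Poisson 95% intervals. H2-DMa goes from 79.5 CPM in cluster 9 to 5.41 CPM in cluster 1 of control, while H2-Aa stays at or below 15.8 CPM.

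Over all callus cells, H2-DM was 102 CPM in control and 58.2 CPM in GC, -0.76 (-0.82 to -0.71), beside -0.04 for the classical genes. Giving the control cell classes the GC levels left H2-DM at 59.9 CPM, and giving the GC cell classes the control levels put it at 97.1 CPM, with the cluster makeup of a class counted as part of its level.

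Trabecular bone held far less classical MHC class II RNA than callus, with 162 CPM in control and 129.6 CPM in GC over all cells. The log2 ratio was -0.31 (-0.37 to -0.26), and it ran from -1.23 with cells thinned to 0.58 with the UMI cutoff alone. Unnamed cluster 34 is part of these sums. Its 5 control cells held 2.64% of the control classical UMIs, and its 14 GC cells held 53.6% of those of GC. No alternative was set to leave that cluster out. The B cell class was the main holder in control, with 312 cells (8.14%), and had 15 cells (0.326%) in GC. Its classical sum was 2007 CPM in control and 13373 CPM in GC, 2.73 (2.61 to 2.85). The control class was a mixture. Clusters 16 (134 cells) and 21 (79 cells) had no GC cell, held 436 and 393 classical CPM, and carried precursor B cell genes at 2435 and 2326 CPM. Cluster 17 held the other 99 control cells and all 15 GC cells, with precursor genes at 238 and 20.3 CPM, and there the classical sum was 9323 and 13373 CPM, 0.52. All 9 members reached 50 UMIs in the class and 8 were higher in GC by a log2 ratio of at least 1, against 6.63% of 4900 genes, but within cluster 17 H2-DMb2 (-0.27), H2-Oa (-0.09) and H2-Ob (-0.56) were below 0, with intervals that span 0. The GC arm rested on 15 cells throughout.

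Trabecular monocytes separated H2-DM from the classical genes. H2-DMa was 125 CPM in control (280 cells) and 106 CPM in GC (272 cells), H2-DMb1 was 64.7 and 52.8 CPM, and at median depths of 13263 and 15250.0 UMIs 85.7% and 80.5% of cells held an H2-DM UMI. At 1000 UMIs these shares were 15.1% (11.1% to 19.8%) and 9.93% (6.64% to 14.1%), with 1 and 0 cells left out, against 0.564% and 0.486% of neutrophils (median depths 5930.0 and 4877 UMIs). The classical sum was 149 and 159 CPM, 0.09 (-0.05 to 0.24), but 84.3% and 87.9% of the cells had no classical UMI, and 2 control cells and 1 GC cell carried 50% of the class's classical UMIs. No member was lower by a log2 ratio of 1 or more, where 0.426% of 8678 genes were. Without the cell of most classical UMIs in each library the classical ratio was -0.22, and with doublets kept it was 1.77.

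Hematopoietic stem or progenitor cells of trabecular bone also carried H2-DMa with little of the classical chains. They held H2-DMa at 111 and 133 CPM, above free RNA (32.2 and 31.4 CPM), H2-Ab1 at 35.6 and 51.2 CPM, and H2-Aa at 15 and 12.6 CPM. Mast cells or basophils held H2-Oa at 115 (32 UMIs) and 83.2 CPM (30 UMIs), against 10.7 and 1.96 CPM in free RNA, while H2-Aa gave no UMI in control and 2.77 CPM in GC. In granulocyte monocyte progenitors the classical sum was 21.7 and 58.9 CPM, with 1 GC cell carrying 59.8% of the classical UMIs of this class in GC.

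Among the other genes of the pathway, Cd74 followed the classical genes in level. Over 51 sums of a class in a library, drawn from the 4 libraries, the 10 of 8688 genes with the highest Pearson correlation with the classical sum on the log2 scale were Cd74 (0.97), Cd83 (0.90), Cd180 (0.86), Zbtb18 (0.79), Ctss (0.79), Cd86 (0.79), Irf5 (0.76), Malt1 (0.75), Trim25 (0.75) and Nipa2 (0.74). Ctss encodes cathepsin S, which trims the invariant chain, and Cd83 and Cd86 are surface molecules of mature dendritic cells and B cells. The members were left out of the ranked genes, each of which reached 50 CPM in at least 1 sum. The same measure was 0.75 for H2-DMa, 0.76 for Ciita and 0.45 for H2-Oa. Sums of 1 library share its depth and its free RNA.

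In callus B cells, 6 of 7 partner genes reached 50 UMIs and 1 was lower by a log2 ratio of at least 1, H2-Eb2 (-1.08), where 4.32% of all genes were. Cd74 was -0.10 there and March1, the ligase that removes class II molecules from the surface, was -0.87. Of 21 promoter regulators 14 reached 50 UMIs and 1 passed the fold, Spi1 (-2.10), with Irf8 at -0.99 and Pax5, the B lineage factor, at -0.95. None of 7 class I genes that reached 50 UMIs passed it, but all 7 were below 0, with a median of -0.30 beside -0.16 for all genes. They ran from B2m at -0.03 and H2-K1 at -0.19 to Tap1 at -0.85, Tap2 at -0.87 and Psmb8 at -0.95. In callus monocytes 1 of 3 costimulation genes that reached 50 UMIs was lower by that fold, the ligand Cd80 (-1.17). Of 8 class I genes 1 was lower, Psmb9 (-1.12), and of 13 regulators 1 was higher, Bcl6 (1.29). Among all genes there, 2.36% were lower and 2.21% higher by that fold. None of 6 partners passed it, with Cd74 at -0.87 and 4 of the 6 above 0. In callus cDCs none of the 9 regulators, 4 partners and 8 class I genes that reached 50 UMIs passed the fold in either direction (2.37% of all genes lower, 2.95% higher), and in macrophages Ctsl, a cathepsin, was the only partner that did (1.29, with 2.33% of all genes higher). The classes of a tissue came from the same pair of libraries, so these values are not separate observations of the treatment.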

How the data were processed

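The authors deposited 1 matrix per library, holding the raw UMI count of every gene in every barcode. The submitters' processing notes name Cell Ranger 5.0.1, Seurat 3.2.0 and mm10, whereas the matrix headers give Cell Ranger 4. The header of the GC callus matrix, the one that listed called barcodes only, is written differently, as 4.0.0. The labels name a version of the kit whose barcode list is shorter than the 6794880 barcodes listed in 3 matrices. The number of mice behind a library is not given in the sources used here. The members, gene lists and tests were chosen with earlier results of these data known.

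In the full matrices, barcodes above 10% of the 99th percentile of the 3000 largest were called cells, as were barcodes of at least 500 UMIs whose profile departed from the barcodes ranked 45001 to 90000 (Monte Carlo test, 10000 simulations, adjusted p of 0.01). Cells with fewer than 200 genes or over 10% mitochondrial UMIs were removed, as were the top doublet scores against simulated pairs at 0.8% per 1000 cells (125 to 428 cells). Both libraries of each tissue entered one clustering, on 2000 variable genes, 30 principal components and 15 neighbors (Leiden resolution 1), without the members and the antigen presentation lists. Clusters of at least 60 cells that also carried markers of a second class were divided again, with 15 principal components and resolution 0.5. Clusters were named from marker lists. The naming rule was set after the clusters were seen, leaves hemoglobin out of the leading genes, and leaves a cluster unnamed when its leading genes go against its markers. The authors' cell labels were not used here, so a class may hold other cells than the study's.

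UMIs were summed per class and library, with exact Poisson intervals for levels, Clopper-Pearson intervals for shares and exact conditional intervals for ratios. A member counted as measured in a comparison at 50 UMIs over both libraries, and classes needed 15 cells in each. The 3-count floor gives the upper limit of a level at 0. Intervals and floors cover counting error only. All 9 members were named, with the genes of the lists and the 10 genes closest to the classical sum. On Poisson counts simulated for callus B cells (4866 genes, 200 changed by a log2 ratio of 2 either way), 96.1% of intervals held the true ratio. The draws met the assumption of the intervals, so this coverage was set in advance. The intervals checked were those of the ratio without the added 5 CPM. Of the changed genes 98.5% passed the log2 ratio of 1, beside 0.150% of unchanged ones, and smaller changes were not simulated. Alternatives covered cell calling, filters, doublets, clustering, denominators, depth, scaling and pseudocounts. The scripts ran in Python 3.11.15, with leidenalg 0.10.2 and igraph 0.11.9 for clustering, scikit-learn 1.9.0 for neighbors, scipy 1.17.1 for intervals, numba 0.67.0, and pandas 2.3.3 and numpy 2.4.6 for tables.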

Additional observations from a re-analysis of the deposited data

Results flagged for a closer look

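In B cells, 5 members had counting intervals on opposite sides of 0 in the tissues, all 5 above 0 in trabecular bone, as had 2.34% of the 3938 genes with 50 UMIs in both tissues. In trabecular B cells 36.3% of all genes were lower and 6.63% higher by a log2 ratio of at least 1. The log2 ratio was 2.25 in trabecular bone and -1.17 in callus for Ciita, 2.44 and -0.19 for H2-Ab1, 1.90 and -0.62 for H2-DMa, 2.04 and -1.04 for H2-DMb2, and 1.99 and -0.68 for H2-Oa. In granulocyte monocyte progenitors the classical sum was 1.26 in trabecular bone and -1.76 in callus, and H2-Ab1, the only member with 50 UMIs in both tissues there, was 0.56 and -1.21, on sides shared by 6.47% of 3495 genes, with 1 GC trabecular cell holding 59.8% of the classical UMIs of its library's class. None of these differences between tissues was tested, since each tissue has 1 library per condition. Clusters 16 and 21, which held precursor B cell genes and 213 of the 312 trabecular control B cells, had no GC cell. Within cluster 17, which held all 15 GC trabecular B cells, H2-DMb2 and H2-Oa were below 0, with intervals that span 0. Ciita, H2-Ab1 and H2-DMa did not reverse there, but 0 of the 9 members stayed within counting error of the class ratio.

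A group of cells outside the named classes carried most of the classical MHC class II RNA in cells of GC trabecular bone. It is counted in the ratio over all trabecular cells. Trabecular cluster 34, of 19 cells, had 12 macrophage and 11 conventional dendritic cell markers raised. It was left unnamed because its leading genes (S100a4, Ccr2, Ms4a6c, Ckb, Pld4, Ccnd1 and others) held 3 monocyte markers and no macrophage marker. The classical genes gave 19375 CPM in its 14 GC cells and 2780.1 CPM in its 5 control cells. These 14 cells held 2605 of the 4864 classical UMIs of GC trabecular cells (53.6%). H2-DMa was 419 CPM in the control cells and 707 CPM in the GC cells, and Ciita had 1 and 7 UMIs.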

How the results depend on the processing

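Depth limits Ciita and the H2-DO genes outside B cells, and the GC B cells of trabecular bone were 15. No paired analysis was possible because each group is 1 library. Over 115 alternatives to the 8 classical log2 ratios, 71 stayed within counting error and 44 moved. Of the 8 ratios, 5 (callus macrophages, callus B cells, trabecular monocytes, all callus and all trabecular cells) had the other sign under at least 1 alternative. A further 864 alternatives covered single members and shares of cells with a classical UMI. Of these, 682 stayed within counting error, 179 moved and 3 reversed. A reversal was counted only where the main log2 ratio was at least 1 either way, so smaller ratios that changed sign count as moved or as within counting error. The 3 reversals were in trabecular B cells within the cluster held by both libraries (H2-DMb2 -0.27, H2-Oa -0.09, H2-Ob -0.56, with the classical sum at 0.52). That setting, naming by marker count and leaving out the cell of most classical UMIs were chosen after seeing the data; the cause of the other changes was not tested.

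For callus macrophages the classical ratio was 0.09 with the UMI cutoff alone (which leaves shallow cells in the GC library only), -0.36 at 5% mitochondrial UMIs, -0.33 thinned, -0.54 as a mean over cells, -0.58 with median-of-ratios scaling and -0.33 with doublets kept. For callus monocytes it was, likewise, -1.05 (cutoff), -0.62 and -0.55 (resolution 0.5 and 2), -0.61 (members kept in the clustering), -0.52 (500 genes), -0.56 (thinned), -0.84 (median of ratios) and -0.34 (marker count alone). For callus cDCs it was -0.05 thinned and as a mean over cells, -0.02 with doublets and -0.07 without cells holding a B cell UMI, and for callus B cells 0.07 without hemoglobin, mitochondrial and ribosomal UMIs. All callus cells gave 1.46 (cutoff), 0.00 (5% mitochondrial), -0.32 (thinned), -0.37 (mean over cells), -0.10 (median of ratios) and -0.10 (doublets).

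For trabecular monocytes it was 2.01 (cutoff), 0.26 and 0.63 (resolution 0.5 and 2), -0.21 (members kept), 0.33 (500 genes), 1.27 (5% mitochondrial), -0.10 (mean over cells), 1.77 (doublets) and -0.22 (without the top cell). All trabecular cells gave 0.58 (cutoff), 0.12 (5% mitochondrial), -1.23 (thinned), -1.15 (mean over cells), -0.25 (other denominator) and -0.37 (without the top cell), and trabecular B cells 2.06 (mean over cells), 2.35 (median of ratios) and 2.97 (other denominator). The UMI cutoff alone gave no value for callus cDCs and B cells, trabecular B cells had none under it or with 500 genes, 5% mitochondrial UMIs, thinning or the top cell left out (under 15 GC cells), and trabecular monocytes had none without B cell UMIs.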
